A study of Canis lupus familiaris with 12 samples.

Results

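The transcripts of 4 collagen chains, COL1A1, COL1A2, COL2A1 and COL7A1, and of the growth factor subunit PDGFB were followed in Madin-Darby canine kidney (MDCK) cells kept in acid or control medium. MDCK is an established epithelial line from dog kidney tubule, bought from a cell repository. Confluent cells had been moved to serum-free DMEM/Ham's F-12 medium a day ahead of the experiment, and were then held for 24 h either at pH 7.0, reached by lowering the bicarbonate of the medium, or at pH 7.4 as the control. The members were all gene probes of a one-colour Agilent dog array whose identifier was a RefSeq transcript of 1 of these 5 genes, and they numbered 17 probes. A RefSeq accession gave a symbol to 944 genes of the array, and these 5 are among them. The study had 3 biological replicates of 1 cell line, their RNA being extracted on separate dates. Every replicate supplied 1 RNA per pH, and each RNA was hybridised to 2 arrays. This made 12 arrays of 6 RNAs. Within each group, biological replicate 1 is on arrays 1 and 2, the second on arrays 3 and 4, and the third on arrays 5 and 6.

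Fibrillar collagens are secreted as procollagens that fold into triple helices and assemble into tensile fibres outside the cell. Type I collagen, built from the COL1A1 and COL1A2 chains, is the main collagen of scar and interstitial matrix and is made mostly by fibroblasts, type II collagen (COL2A1) is the main collagen of cartilage, and type VII collagen (COL7A1) forms the anchoring fibrils that tie an epithelial basement membrane to the matrix beneath it. PDGFB encodes the B chain of platelet-derived growth factor, a secreted mitogen for mesenchymal cells, and in the kidney PDGF is known as a growth signal for mesangial cells and interstitial fibroblasts.

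Levels are given first as the processed signal of the scanner files, an intensity in arbitrary units, and then as log2 of that signal minus the 75th percentile of the array. A change is the log2 difference of pH 7.0 from pH 7.4 between paired RNAs, and the ± is its limma standard error over 3 pairs. Adjusted p-values are Benjamini-Hochberg values over all 27136 tested probes, and a probe passed at a value under 0.05. The test took probes that the scanner software marked as well above background (hereafter detected) on 6 or more of the 12 arrays. Each biological replicate filled 1 slide with its 4 arrays, so slide and replicate cannot be told apart. Between 49.4% and 54.1% of the array's 43603 probes were detected on the arrays of biological replicate 2, against 62.2% to 70.4% on the other 8 arrays.

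Of the 17 member probes, 10 were tested, with at least 1 for each gene, and 7 were too dim. None of the 10 passed (lowest limma adjusted p = 0.160), and 0% of all tested probes passed. At an unadjusted limma p under 0.05 there were 4 members, all higher at pH 7.0: the COL2A1 probe, both tested COL7A1 probes and the PDGFB probe. Over all tested probes 6.48% were higher and 5.77% lower at that p. These 4 probes were also the ones that were higher at pH 7.0 in all 3 biological replicates, as were 18% of all tested probes. The COL2A1 probe and COL7A1 A_11_P075871 were detected on 0 of the 4 arrays of biological replicate 2, so their sign there rests on signals near background. Of the members, 0 were lower in all 3 replicates, as were 15.7% of all tested probes. The type I collagen probes had changes on both sides of 0. Over the 10 tested members, 8 estimates were above 0 and 2 below, with a median of 0.35. Over all tested probes the median was 0.012, and 51.3% were higher. Over the 598 tested genes with a symbol, each by its brightest probe, 363 estimates were above 0 and 235 below, with a median of 0.077. In these bulk RNAs fewer cells of a type and less RNA per cell cannot be told apart.

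**Figure D1:**
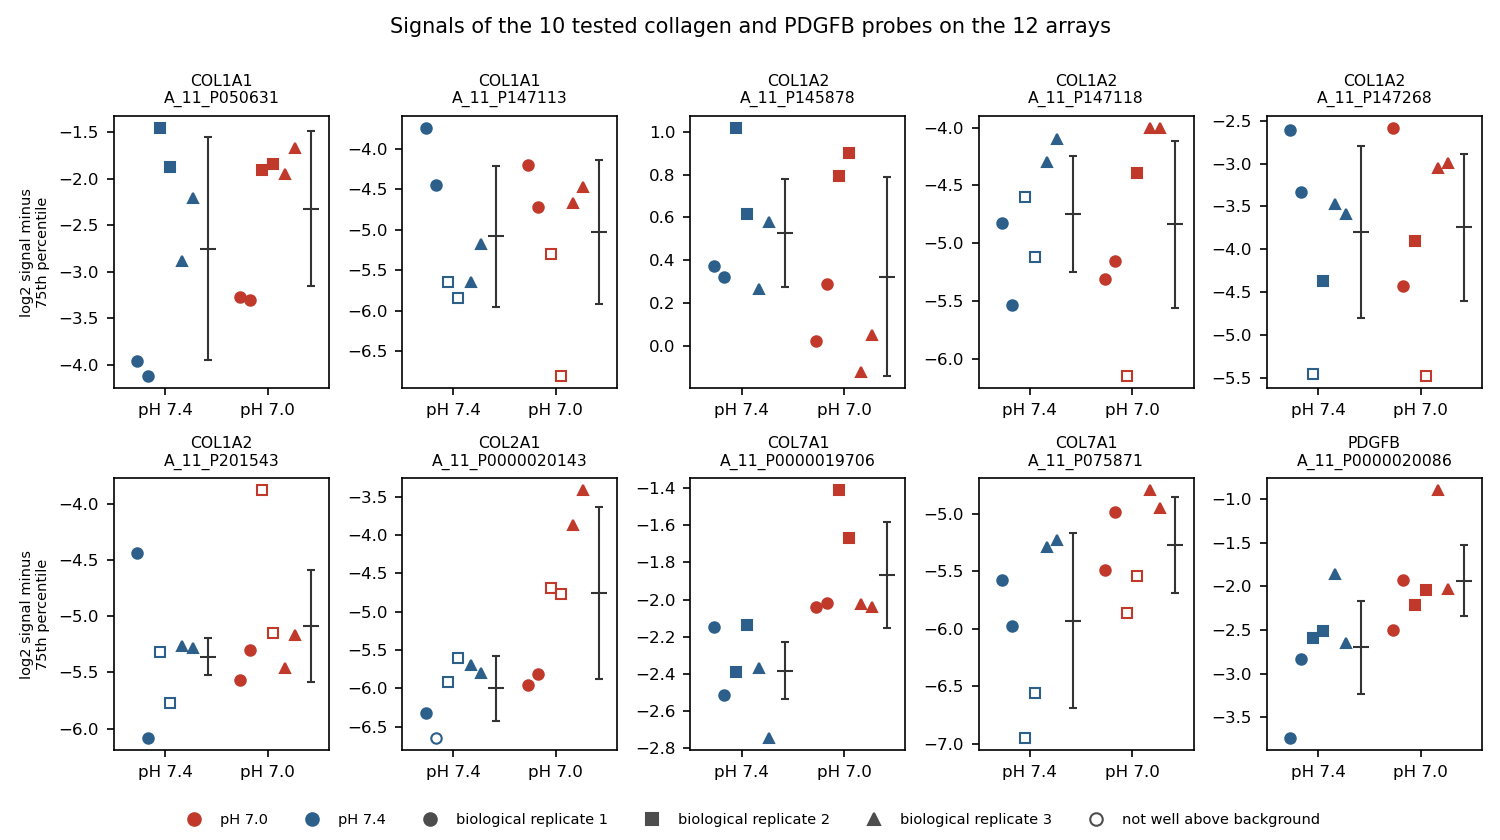
Signals of the 10 tested probes on the 12 arrays, as log2 signal minus the array's 75th percentile, with 1 panel and 1 vertical axis per probe. Circles, squares and triangles are biological replicates 1, 2 and 3, open symbols are arrays where the probe was not well above background, and the bar gives the mean ± SD of the 3 RNAs; in the panel of COL7A1 A_11_P0000019706 all 6 red points lie above all 6 blue ones.

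The COL1A1 chain, the α1 chain of type I collagen, was represented by 4 probes, of which 2 were tested. A_11_P050631 was detected on all 12 arrays. Its processed signal was 73.8, 83.5, 134, 114, 208 and 165 on pH 7.0 arrays 1 to 6 and 47.1, 54.3, 150.2, 208, 93.8 and 111 on pH 7.4 arrays 1 to 6. The groups overlapped: the 4 arrays of biological replicate 1 were the lowest ones, and the pH 7.4 arrays of biological replicate 2 reached the top of the pH 7.0 range. The change was 0.43 ± 0.26, a 1.34-fold higher signal, with a 95% interval of -0.16 to 1.01 (limma adjusted p = 0.556). Biological replicates 1 and 3 gave 0.76 and 0.74, and the second gave -0.21. Without biological replicate 2 the estimate was 0.75. The means of the 3 biological replicates spanned 1.89 on the log2 scale, more than the change with pH. The paired fit takes this span out of the test.

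The second tested COL1A1 probe, A_11_P147113, was dim, being detected on 4 of 6 arrays in each group and on none of the 4 arrays of biological replicate 2. Its signal was 3.66 at the lowest, 27.4 at the median and 38.7 at the highest at pH 7.0, and 8.26, 14.0 and 54.7 at pH 7.4. Both ends of the pH 7.0 range lay below those of the pH 7.4 range, and the groups overlapped. The change was 0.056 ± 0.28 (limma adjusted p = 0.960), with -0.36, -0.32 and 0.84 in biological replicates 1 to 3 and 0.24 without the second. The probes of this gene did not follow each other: over the 6 RNAs, which share their arrays and their scaling, they correlated at r = -0.743.

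COL1A2, the α2 chain of type I collagen, had 6 probes, of which 4 were tested. Of these, A_11_P145878 was detected on all 12 arrays. Its signal was 724, 1005, 872, 765, 742 and 545 on pH 7.0 arrays 1 to 6, and 950.5, 1178, 835, 1169, 837 and 766 on pH 7.4 arrays 1 to 6. The pH 7.4 arrays held the highest values and the pH 7.0 arrays the lowest, and the groups overlapped. After scaling to the 75th percentile the change was -0.21 ± 0.23, with a 95% interval of -0.71 to 0.30 (limma adjusted p = 0.773). By biological replicate it was -0.19, 0.031 and -0.46, and without the second it was -0.32.

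The other 3 tested COL1A2 probes had estimates of -0.091 ± 0.23 (A_11_P147118), 0.061 ± 0.26 (A_11_P147268) and 0.27 ± 0.28 (A_11_P201543), with limma adjusted p-values of 0.918, 0.952 and 0.746. All 3 changed sign between biological replicates. A_11_P147118 gave -0.054, -0.41 and 0.19, A_11_P147268 gave -0.54, 0.22 and 0.50, and A_11_P201543 gave -0.17, 1.03 and -0.041. The one large value, 1.03, came from biological replicate 2, where A_11_P201543 was not well above background on any of the 4 arrays. Without biological replicate 2 the estimates were 0.070, -0.019 and -0.11, so that each took the opposite sign. A_11_P145878 and A_11_P147268 ran in opposite order over the 6 RNAs (r = -0.893), and the other pairs of COL1A2 probes lay between -0.451 and 0.426. No probe of either type I chain thus gave a change beyond the spread between replicates, and the probes of each chain differed in sign in at least 1 biological replicate.

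COL2A1, the chain of cartilage collagen, had the largest estimate among the members. Its tested probe, A_11_P0000020143, read 11.5, 14.7, 19.5, 15.0, 55.3 and 49.3 on pH 7.0 arrays 1 to 6. On pH 7.4 arrays 1 to 6 it read 9.15, 9.41, 6.83, 15.7, 13.5 and 9.19. Both pH 7.0 arrays of biological replicate 3 stood well above all others, and the groups overlapped below them. It was detected on 4 of the pH 7.0 arrays and 3 of the pH 7.4 arrays, and on none of the 4 arrays of biological replicate 2.

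The change of this COL2A1 probe was 1.24 ± 0.30, higher at pH 7.0, with a 95% interval of 0.58 to 1.91 (limma adjusted p = 0.160). No fold is given, since the probe was not detected on every array. By p it ranked at place 341 of the 27136 probes. It was 0.61, 1.03 and 2.10 in biological replicates 1 to 3, so the estimate was higher in 3 of 3 pairs but unequal among them. Without biological replicate 1 or 2 it was 1.56 or 1.35 and passed (limma adjusted p = 0.0210 and 0.0154). In these settings 203 and 200 of the 27136 probes passed as higher, and 74 and 447 as lower. Without biological replicate 2 all tested members had the same standard error, 0.364, so that p does not measure this probe's own spread. Without biological replicate 3 the estimate was 0.82 and did not pass (limma adjusted p = 0.615). The COL2A1 probe also passed when the 12 arrays entered the fit singly with the RNA as a random block (limma adjusted p = 0.0178). That fit took a duplicate correlation of 0.164, so it counted the 2 arrays of an RNA nearly as separate replicates. It called 396 probes higher and 294 lower.

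The values of this COL2A1 probe differed with the treatment of the background. The median signal of the COL2A1 probe, read from the scan ahead of any background subtraction, was 121 and 131.5 on the pH 7.0 arrays of biological replicate 2 and 131 on each pH 7.4 array of it. In that replicate the unsubtracted signals did not separate the groups. The 3 member probes that were not well above background on any array read 81 to 122 there, against 30 to 44 on the other 8 arrays. In biological replicate 3 the unsubtracted COL2A1 signals were 93 and 88 at pH 7.0 and 50 and 41 at pH 7.4, so there the groups were apart before subtraction too. In biological replicate 1 they were 48 and 50 at pH 7.0 and 44.5 and 46 at pH 7.4, on local backgrounds of 35 to 38. With normexp correction on the local backgrounds as given in the files, the change was -0.29. On pH 7.4 arrays 3 and 4 a few spots carried local backgrounds of up to 24963 and 65528, and on these arrays that setting put every member probe but COL1A2 A_11_P145878 within -0.63 to -0.40 and -1.06 to -0.75, those not well above background on any array included. When spots far dimmer than their local background took the median background of the array instead, a setting added after seeing the data, the change was 0.36.

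The 2 further COL2A1 probes were too dim for the test. A_11_P053401 was detected on 4 arrays of the pH 7.0 group and 1 of the pH 7.4 group, with signals of 7.52 to 17.6 against 6.43 to 16.3. A limma fit without the filter gave 0.26 ± 0.26. A_11_P050066 was detected on 1 of the 12 arrays, at pH 7.0 in biological replicate 3, and no change is given for it. In biological replicate 2 neither these nor the tested COL2A1 probe was well above background on any array. A_11_P053401 was detected on 3 of 4 arrays in biological replicate 1 and on 2 of 4 in biological replicate 3, those at pH 7.0. By replicate it changed by 0.53, -0.046 and 0.31, beside 0.61, 1.03 and 2.10 for the tested probe.

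**Figure D2:**
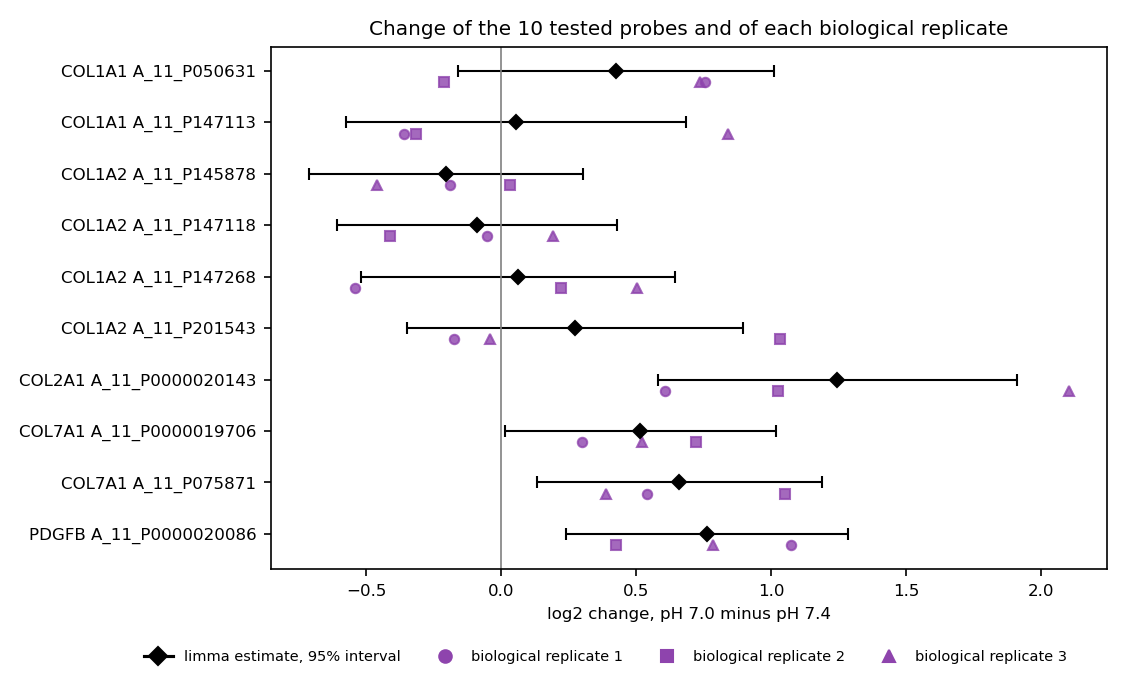
Changes of the 10 tested probes on the log2 scale, pH 7.0 minus pH 7.4. Diamonds are limma estimates with 95% intervals, and the purple symbols are the changes within each of the 3 biological replicates; the 4 intervals that lie above 0 are those of COL2A1, both COL7A1 probes and PDGFB, and these intervals are not adjusted for the number of probes.

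COL7A1, the anchoring-fibril chain, had 3 probes, of which 2 were tested. A_11_P0000019706 was detected on all 12 arrays. Its signal was 173, 203, 189, 129, 198 and 128 on pH 7.0 arrays 1 to 6 and 166, 165, 78.7, 173, 135 and 76.4 on pH 7.4 arrays 1 to 6. After scaling, the pH 7.0 arrays lay between -2.04 and -1.41 and the pH 7.4 arrays between -2.74 and -2.14. The groups overlapped in processed signal and did not overlap after scaling. This was 1 of the 10 tested members, and over all tested probes 0.848% were higher and 0.789% lower without overlap.

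The change of A_11_P0000019706 was 0.52 ± 0.22, a 1.43-fold higher signal (limma adjusted p = 0.396). The biological replicates gave 0.30, 0.72 and 0.52, and without the second the estimate was 0.41. It was the only tested member whose replicate means spanned less, 0.39, than its change with pH; in the other 9 of 10 the replicates stood further apart than the pH groups. With normexp on the local backgrounds as given the change was 0.019, and with the repaired backgrounds it was 0.34.

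The second tested COL7A1 probe, A_11_P075871, was dim, being detected on 4 of 6 arrays in each group and on none in biological replicate 2. Its signal was 8.64, 16.4 and 29.1 at pH 7.0 and 3.34, 14.3 and 17.8 at pH 7.4 (lowest, median and highest). The arrays of the groups overlapped, with pH 7.4 arrays of biological replicate 2 lowest. No fold is given for this probe either. The change was 0.66 ± 0.24 (limma adjusted p = 0.304), with 0.54, 1.05 and 0.39 by biological replicate. The largest of these came from the replicate in which the probe was not above background, and without that replicate the estimate was 0.46. With normexp on the backgrounds as given it was -0.54, and 0.13 with repaired backgrounds. Both tested probes were higher at pH 7.0 in 3 of 3 pairs, but they hardly varied together over the 6 RNAs (r = 0.0804).

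PDGFB had a single probe, A_11_P0000020086, detected on all 12 arrays. Its signal was 126, 217, 109, 99.8, 433 and 129 on pH 7.0 arrays 1 to 6 and 55.1, 132, 68.4, 134, 192 and 82.0 on pH 7.4 arrays 1 to 6. The groups overlapped, and array 5 was the highest of each group. The change was 0.76 ± 0.23, a 1.695-fold higher signal, with a 95% interval of 0.24 to 1.28 (limma adjusted p = 0.238). It ranked at place 1012 of the 27136 probes.

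Within biological replicates 1 to 3 the PDGFB change was 1.07, 0.43 and 0.79, higher at pH 7.0 in 3 of 3 pairs, and without the second the estimate was 0.93. Duplicate arrays of the same RNA differed more for this probe than for most: the median gap between duplicates was 0.68 on the log2 scale and the largest 1.13, against medians of 0.29 and 0.75 over all tested probes. Leaving out 1 biological replicate or 1 array moved the estimate between 0.57 and 0.95. Normexp on the backgrounds as given left 0.12, and with repaired backgrounds 0.50.

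**Figure D3:**
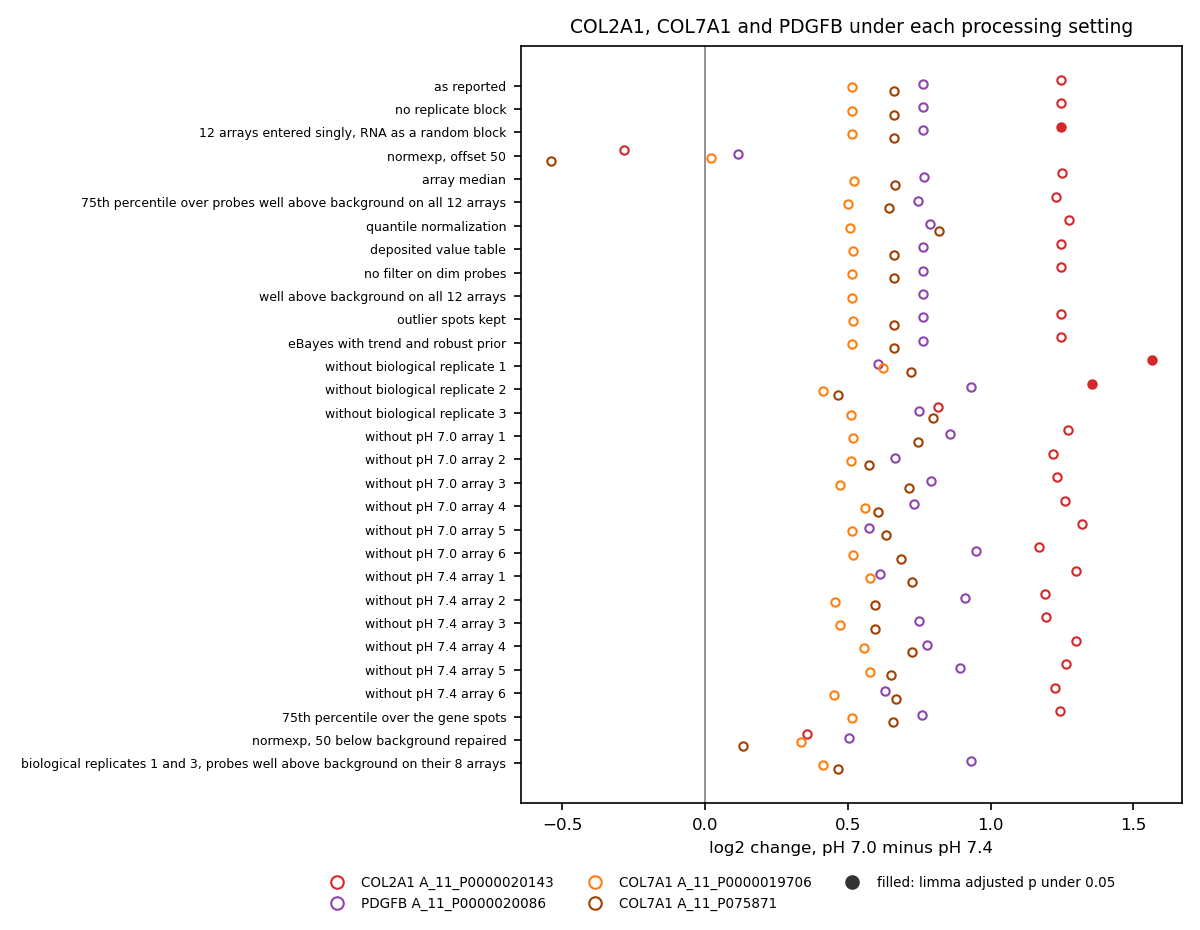
Estimates of COL2A1, the tested COL7A1 probes and PDGFB under each processing setting, as log2 change of pH 7.0 minus pH 7.4 on the horizontal axis. Filled symbols have a limma adjusted p under 0.05, which COL2A1 reached in 3 settings; normexp with the local backgrounds as given moved all 4 probes down, COL2A1 to -0.29 and COL7A1 A_11_P075871 to -0.54.

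Among the 7 untested probes, COL1A1 A_11_P0000019813, COL1A2 A_11_P0000019905 and COL7A1 A_11_P053406 were not well above background on any array, so no change is given for them. COL1A1 A_11_P147258 was detected on 1 array in each group. COL1A2 A_11_P051236, spotted 5 times per array, was so on 3 arrays at pH 7.0 and 2 at pH 7.4, and its highest signal, 26.2, was on pH 7.4 array 1. Signals of the 7 dim probes, averaged over spots with outlier spots left out, ran from 1.51 to 26.2. For the type I chains, detection thus depended on the probe: A_11_P050631 and A_11_P145878 were measured on every array, while other probes to the same transcripts were not.

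**Figure D4:**
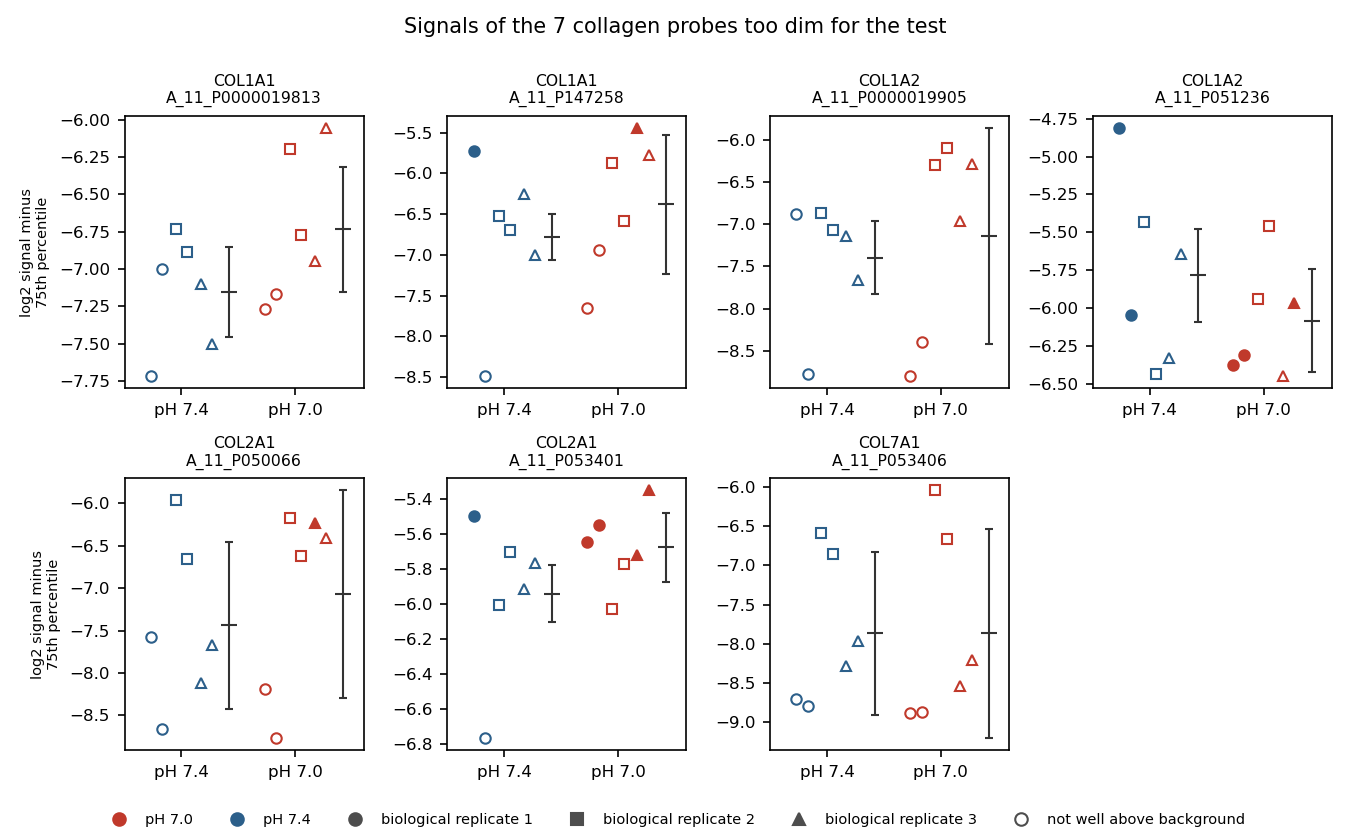
Signals of the 7 collagen probes too dim for the test, as log2 signal minus the array's 75th percentile, with symbols for the biological replicates and bars for the mean ± SD of the 3 RNAs. Most symbols are open; COL2A1 A_11_P053401 has filled symbols on 4 arrays at pH 7.0 and on 1 at pH 7.4.

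Few genes of the pathways around these members could be named on this array. Of 176 listed genes for collagen chains, collagen processing, matrix proteases, matrix and PDGF receptors, growth factors and cartilage regulators, 24 were on the array under a symbol and 17 were tested, each by its brightest probe. None passed the limma threshold. Of the 17, 11 estimates were above 0 and 6 below, 4 had an unadjusted p under 0.05, all higher, and the median was 0.17. Over the 598 named genes tested, 363 were above 0 and 235 below, 63 were higher and 21 lower at that p, and the median was 0.077.

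Of the genes that make and fold collagen, only SERPINH1, the collagen chaperone HSP47, was tested, and it stood at 0.17 ± 0.22. The single other collagen chain tested, COL6A3, stood at -0.22 ± 0.25 and was detected on 3 of 6 arrays per group, while the basement membrane chains COL4A4 and COL4A5 were not so on any array. The matrix receptor genes ITGB3, an integrin β chain, and DAG1, dystroglycan, stood at 0.61 ± 0.24 and 0.51 ± 0.23 (limma adjusted p = 0.357 and 0.407). The matrix proteins ACAN, the large proteoglycan of cartilage, and BGN, biglycan, stood at -0.14 ± 0.22 and 0.16 ± 0.29.

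Of the matrix proteases and inhibitors, TIMP2 stood at 0.50 ± 0.24 and TIMP1 at 0.58 ± 0.35. The brightest probe of MMP9, a gelatinase, was saturated on 4 arrays of the pH 7.0 group and 2 of the control group, and its fold is left out. PDGFRB, the receptor that binds the PDGF B chain, stood at -0.014 ± 0.25 and was detected on 5 of 6 arrays in each group. The other growth factors stood at -0.49 ± 0.24 (VEGFA, limma adjusted p = 0.443), -0.48 ± 0.23 (EGF) and 0.28 ± 0.31 (EDN1). SOX9, the transcription factor that drives COL2A1 in chondrocytes, was detected on all 12 arrays and stood at -0.063 ± 0.24 (limma adjusted p = 0.946), with -0.53, 0.21 and 0.13 by replicate, beside 0.61, 1.03 and 2.10 for COL2A1.

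Markers of cell types were checked beside the collagen values, since type I collagen is mostly a product of fibroblasts. Of 5 renal epithelial markers on the array, 4 were tested, and the tight junction genes OCLN, CGN and TJP1 were detected on all 12 arrays, while UMOD, a marker of the thick ascending limb, was so on none. CLDN2, a pore-forming claudin of leaky tubule epithelia, stood at 1.15 ± 0.29 (limma adjusted p = 0.174). It was detected on 5 arrays at pH 7.0 and 3 at pH 7.4, and changed by 0.54, 1.95 and 0.97 in biological replicates 1 to 3. Of 4 fibroblast markers, S100A4 and PDGFRB were tested. The S100A4 probe was saturated on 6 arrays at pH 7.0 and 4 at pH 7.4, so its change is left out, and PDGFRB had the value given above. DCN, decorin, was detected on 0 and 1 of 6 arrays and DES, desmin, on 2 and 1. Sums over the probes of a list, in multiples of the array's 75th percentile, are given for each list on its own, since levels of different probes cannot be compared. Without the saturated S100A4 probe the fibroblast sum was 0.083 to 0.14 at pH 7.0 and 0.096 to 0.13 at pH 7.4. The renal epithelial sum was 14.3 to 27.0 and 12.3 to 25.2. For 3 endothelial markers the sum was 1.35 to 5.04 and 1.52 to 2.56. VWF was detected on 6 arrays in each group, KDR on 1 at pH 7.0 and 2 at pH 7.4, and SELE on 1 in each group. For 3 leukocyte markers the sum was 0.030 to 0.077 and 0.033 to 0.079. CD8A was detected on 4 arrays at pH 7.0 and 3 at pH 7.4, CD4 on 3 and 2, and MS4A1 on no array. The part of other cell types in the collagen signals was not tested.

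**Figure D5:**
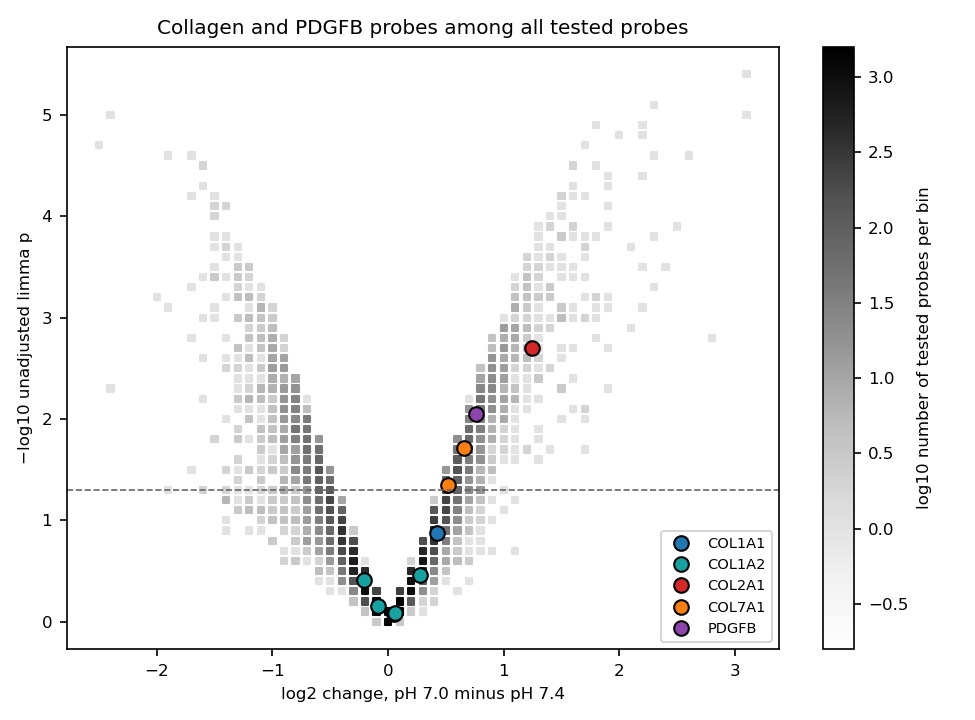
The 10 tested collagen and PDGFB probes among all 27136 tested probes, with the log2 change on the horizontal axis and −log10 of the unadjusted limma p on the vertical axis; grey squares count probes per bin on a log10 scale. The dashed line is an unadjusted p of 0.05, and COL2A1, PDGFB and both COL7A1 probes lie above it on the side of higher signal at pH 7.0; the second COL1A1 probe is hidden by a COL1A2 probe near 0.

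The named genes whose levels ran most like those of each member over the 6 RNAs were taken by Pearson correlation, each gene by its brightest tested probe. These are descriptions over 6 points that share arrays, slides and scaling. For COL1A1 they were HAMP, which encodes the iron hormone hepcidin (r = 0.976), and SLCO2A1, a prostaglandin transporter (0.955). For COL1A2 they were FIG4, a phosphoinositide phosphatase (0.948), GALC, a lysosomal galactosidase (0.928), and HSP90B1, an endoplasmic reticulum chaperone (0.921). COL2A1 ran closest to MAPT, the microtubule protein tau (0.972), PPP1CA, a protein phosphatase subunit (0.969), and PON2, a paraoxonase (0.946). COL7A1 ran closest to B4GALT4, a galactosyltransferase (0.973), GLUL, glutamine synthetase (0.949), and CTSA, a lysosomal carboxypeptidase (0.944). PDGFB ran closest to PON2 (0.961), the small GTPase gene RAB8A (0.958) and MYH9, a non-muscle myosin heavy chain (0.958). PON2 appeared for both COL2A1 and PDGFB, and its own change was 0.32 ± 0.22 (limma adjusted p = 0.598). Neither type I chain was among the 3 closest genes of the other.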

How the data were processed

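Cy3-labelled RNA of 6 RNAs (3 pH 7.0, 3 pH 7.4) was hybridised to 12 one-colour Agilent arrays, read with Agilent Feature Extraction 10.7.3.1 per the submitters' processing notes. The deposited scanner files give Cy3 intensity for every spot, namely the processed signal, the median signal and its local background, per the file headers. The authors' deposited value table holds log2 values whose scale and centring are not stated by them. By comparison it matched log2 processed signal minus the 75th percentile, centred on the probe's median across arrays (lowest slope 0.999689, lowest r 0.999907), and its column medians were -0.112, -0.150, 0.225, 0.213, -0.226 and 0.0169 on the pH 7.0 arrays in order and 0.0200, -0.211, 0.213, 0.0789, -0.0860 and 0.0652 on the pH 7.4 arrays. It covers 15 of the 17 member probes and served as an alternative.

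Control spots were left out, 128 outlier spots were treated as missing and saturated ones retained, spots of a probe and then the 2 arrays of an RNA were averaged on the log2 scale, and the 75th percentile over gene probes was subtracted. limma 3.58.1 in R 4.3.3 (lmFit, eBayes with a constant prior, two-sided) was fitted with the biological replicate as a block. Its 9.67 degrees of freedom count residual and prior ones together, the prior being drawn from all tested probes. The labels pair the RNAs by extraction, and deviations of paired RNAs from their group means correlated at 0.394, 0.637 and 0.807. With the block, the p-values measure how the pH difference varied between the 3 extraction pairs of 1 cell line, combined with that prior. They do not measure the spread between extractions, and 3 pairs limit the precision. Symbols came from RefSeq accessions matched to UU_Cfam_GSD_1.0, for 1484 probes (3.40%), so most probes are unnamed. Named were all member probes, the 3 listed genes of lowest p per list and the 3 most alike genes per member, besides TJP1, UMOD and genes too dim to test; a few genes that this rule gives are not reported here. The 5 members and the lists were chosen with earlier results of these data known. Plots used matplotlib 3.10.9 under python 3.11.15. Alternatives covered the block, duplicate arrays, background correction, scaling, the value table, filters, the prior and leaving out replicates or arrays.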

Additional observations from a re-analysis of the deposited data

Results flagged for a closer look

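The 10 tested probes and both pH values formed 20 groups of 6 arrays. In 2 of these groups an array stood apart from the other 5 by Dixon's 95% criterion. Chance reaches it in about 1 group in 20 where the 6 values are independent. These arrays are duplicates of 3 RNAs per group, so that rate need not hold here. PDGFB A_11_P0000020086 was highest on pH 7.0 array 5, at -0.90 on the scaled log2 scale, with the nearest array at -1.92 and a gap of 0.639 of the group's range; without that array the change with pH was 0.57. COL1A2 A_11_P201543 was highest on pH 7.0 array 3, at -3.88, with the nearest array at -5.15 and a gap of 0.749 of the range, and it was not well above background there.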

How the results depend on the processing

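There were 29 other settings, of which 3 were added after seeing the data; the stricter detection filters left COL2A1 with 27 and the 5 other dim probes with 28. COL1A1 A_11_P050631, COL1A2 A_11_P145878, COL7A1 A_11_P0000019706 and PDGFB kept their sign in all 29 and passed in none. Over all probes, with 0 called in either direction in the reported fit, limma called 396 higher and 294 lower with the 12 arrays entered singly (duplicate correlation 0.164; 1 member, COL2A1), 10 and 4 with normexp, 17 and 7 with the array median, 90 and 44 with probes well above background on all 12 arrays, and 122 and 70 with a trended, robust prior. Added settings gave 14 and 6 with the percentile over spots, and 206 and 435 for biological replicates 1 and 3 with probes well above background on their 8 arrays. Without the replicate block, which leaves estimates as they are in this balanced design, 0 were called in either direction, and the standard error of COL2A1 went from 0.30 to 0.55. Leaving out 1 replicate or array gave 0 to 203 higher, 0 to 447 lower and 0 to 1 members called: omitting biological replicate 1 left 203 and 74, omitting the second 200 and 447, dropping pH 7.0 array 6 left 10 and 5, and dropping array 1 of pH 7.4 left 4 and 0.

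Signs turned with normexp for COL1A1 A_11_P147113 (-0.61), COL1A2 A_11_P147268 (-0.56) and A_11_P201543 (-0.59), COL2A1 A_11_P0000020143 (-0.29) and COL7A1 A_11_P075871 (-0.54); with quantile scaling for COL1A1 A_11_P147113 (-0.11); with repaired normexp for COL1A2 A_11_P147118 (0.088); and with biological replicates 1 and 3 for COL1A2 A_11_P147118 (0.070), A_11_P147268 (-0.019) and A_11_P201543 (-0.11). Leave-one-out estimates ran from -0.34 to 0.31 for COL1A1 A_11_P147113, and for COL1A2 from -0.38 to 0.20 (A_11_P147118), -0.25 to 0.37 (A_11_P147268) and -0.11 to 0.55 (A_11_P201543). The causes were not tested. Signal over background limits all 6 of the tested probes that were not well above background on all 12 arrays, and 4 of them were not well above background on any array of biological replicate 2.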

Other observations

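The COL1A2 and COL2A1 probes printed 5 times per array show the spread of single spots. COL1A2 A_11_P051236 read 23.6 to 28.0 on the 5 spots of pH 7.4 array 1 and 12.2 to 16.2 on those of pH 7.4 array 2, the same RNA, and all 5 spots were well above background on both. On pH 7.0 arrays 1 and 2, of the paired RNA, its spots read 6.34 to 12.1 and 6.55 to 16.3, with 4 of 5 well above background on each. COL2A1 A_11_P050066 read 6.64 to 14.6 on pH 7.0 array 5, with 4 of 5 spots well above background, and 4.08 to 10.1 on its duplicate, with 1 of 5. Its spots ran from 1.82 to 6379 on pH 7.4 array 2 and from 3.78 to 33.7 on pH 7.4 array 3, with 1 of 5 well above background on each. The averaged signal on pH 7.4 array 2 was 2.34, outlier spots being treated as missing.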
